A study of Mus musculus with 15 samples.

Results

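The 40 genes described here are targets of the hypoxia-inducible factor (HIF) and genes of glycolysis, read in the raw count table of mRNA from MDA-MB-231 tumours. They were taken by symbol from a fixed list of 40, which splits into 17 HIF targets, 15 glycolytic enzymes, 7 glucose, lactate and pathway regulators, and HIF1A itself. All 40 were found among the 25382 genes of the table, and all 40 were among the 15190 genes that passed the filter on low counts, so no member was lost to it.

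MDA-MB-231 is a human triple-negative breast cancer line, and the cells used in every group carried GFP and luciferase (labelled GFP+ Luc+). Before the tumours were grown, a shear of 10 dyn/cm2 defined the weakly adherent class and one of 50 dyn/cm2 the strongly adherent class, while unsorted cells met no shear. Primary tumours from mice of a strain labelled Nod/Skid were dissociated and their mRNA was sequenced in bulk, giving 4 strongly adherent, 5 unsorted and 6 weakly adherent libraries. Each library also has a number in its title (4, 5, 6, 7-8, 9 or 10), here called the title number, whose meaning the labels do not give. Numbers 4, 5, 6 and 9 have a library of each class, number 7-8 has an unsorted and a weakly adherent one, and number 10 has a weakly adherent one alone. Whether libraries come from separate animals is not stated, so p-values measure the spread between these samples, which may be technical, and libraries of one number may share a source.

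HIF is a transcription factor made of an oxygen-sensitive alpha subunit, such as the HIF1A product, and a stable partner. With oxygen present, prolyl hydroxylases of the EGLN family mark the alpha subunit for destruction through the VHL ubiquitin ligase. When oxygen is short the subunit accumulates and turns on genes for glucose uptake, glycolysis, lactate export, pH control, matrix and vessel growth. HIF1A is controlled mainly at the level of the protein, so its mRNA is not a reading of HIF activity. Tumours often run glycolysis at a high rate, and CA9 and LDHA are widely used markers of tumour hypoxia and of glycolysis. In bulk tumour RNA, fewer cells that make a transcript and less of it per cell cannot be told apart.

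Total counts ran from 30372619 to 45434799 per library, with 16760 to 17974 genes detected. The 40 genes took between 1.48% (weakly adherent library 10) and 2.55% (strongly adherent library 6) of a library's counts, and the smallest count of any member in any library was 50. Levels below are CPM, counts scaled to library size with edgeR's TMM factors, and they are compared between libraries, never between genes. Where 3 values of a title number are listed, the order is strongly adherent, then unsorted, then weakly adherent. The marker CA9 was counted in all 15 libraries but was low in most of them, and LDHA was abundant in all.

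The libraries did not carry these genes at even levels. Over the 15 libraries the SD of log2 CPM had a median of 0.44 among the members against 0.29 over all genes tested, and 30 of the 40 members varied more than the median gene. Without the 3 libraries of title number 6 the medians were 0.41 and 0.25. The highest library exceeded the lowest by between 1.49-fold for PKM, the pyruvate kinase that ends glycolysis, and 32.7-fold for ALDOC, a brain-type aldolase.

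**Figure D1:**
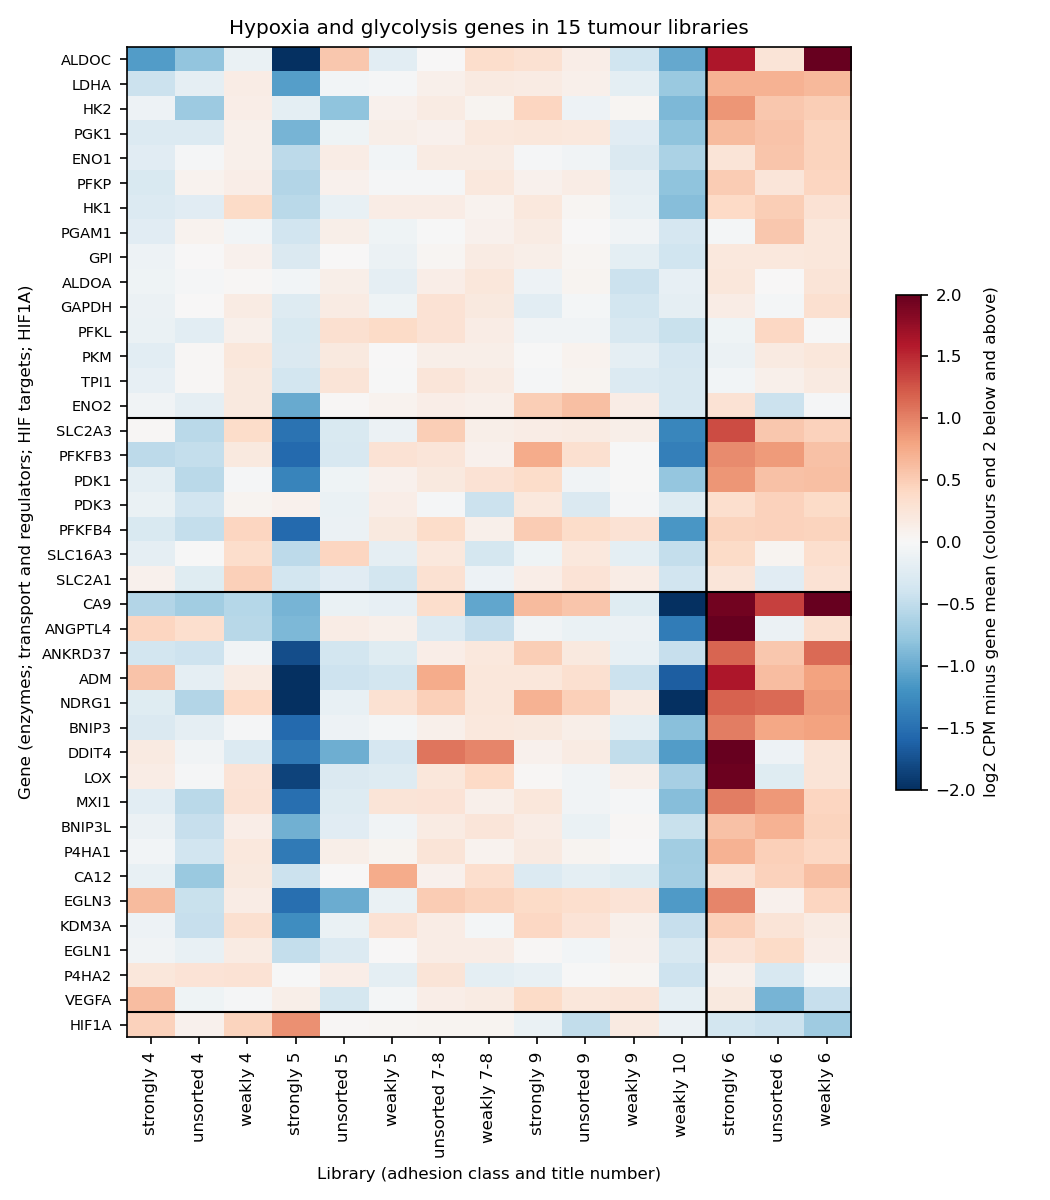
Each cell is the log2 CPM of a gene (rows, grouped by role) in a library (columns) minus that gene's mean over the 15 libraries; red is above the mean, blue below, and the colours end at 2 and -2. The 3 columns right of the vertical line are title number 6, where most rows are red, and strongly adherent library 5 and weakly adherent library 10 are blue for most rows, while the HIF1A row is red in strongly adherent library 5.

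Some libraries stood apart, in opposite directions. For 30 of the 40 genes the highest library was one of title number 6: strongly adherent library 6 for 18, unsorted library 6 for 7 and weakly adherent library 6 for 5. For 34 of the 40 genes the lowest library was strongly adherent library 5 (23 genes) or weakly adherent library 10 (11 genes). Averaged over the 17 HIF targets, log2 CPM lay 1.07, 0.35 and 0.51 above the gene means in title number 6. The same average was -1.24 in strongly adherent library 5 and -0.94 in weakly adherent library 10, and it stayed between -0.28 and 0.28 in the other 10 libraries. The glycolytic enzymes had the same libraries at both ends with smaller distances, at 0.37, 0.29 and 0.46 in those of title number 6, -0.61 in strongly adherent library 5 and -0.55 in weakly adherent library 10. In weakly adherent library 10 none of the 40 genes was above its mean, and in strongly adherent library 5 only 3 were. How often these libraries were highest or lowest over all genes is not given here, so such counts are not shown to be particular to the members. The median over all genes tested of log2 CPM minus the gene mean was 0.01 in strongly adherent library 5 and 0.02 in weakly adherent library 10. In title number 6 it was 0.01, -0.01 and -0.03.

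**Figure D2:**
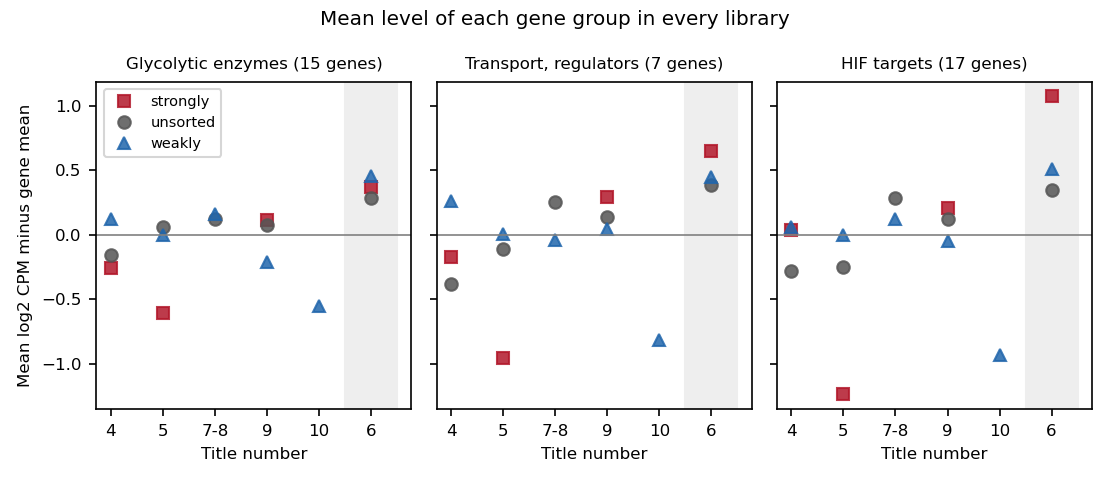
Points give the mean over a gene group of log2 CPM minus the gene mean (vertical axis) for each library, placed by title number (horizontal axis) and marked by adhesion class; the grey band is title number 6. In all 3 groups of genes the lowest points are strongly adherent library 5 and weakly adherent library 10, and the highest are of title number 6.

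Some markers of other cells also differed in these libraries, while sums of sample-state genes overlapped between title number 6 and the rest. The part of either in the results was not tested. A list of 18 striated muscle genes summed to 332 to 1365 CPM in the libraries of title number 6, to 3412 CPM in strongly adherent library 5, and to as little as 122 CPM elsewhere. In the contrast of title number 6 given below, which called 26.5% of all genes, 9 of the 18 were called higher and 1 lower. All 18 had at least 10 counts in strongly adherent library 5, where skeletal actin ACTA1 stood at 864 CPM. ENO3, the muscle enolase, was at 105 CPM in that library and at 10.8 to 21.4 CPM in title number 6. Weakly adherent library 10 was not high for muscle genes, with a sum of 194 CPM. For lists given below, strongly adherent library 5 and weakly adherent library 10 had the highest fibroblast sums (1361 and 1186 CPM). They also had the lowest macrophage sums (73.8 and 79.7 CPM), and endothelial sums of 37.4 and 83.7 CPM. The 9 fibroblast markers summed to 223 to 413 CPM in title number 6 and to 443 to 1361 CPM in the other 12. Of 8 tested fibroblast markers, 5 were called lower and 1 higher in title number 6. The 10 endothelial markers summed to 197 to 205 CPM in title number 6 against 37.4 to 166 CPM, with 3 of the 10 under 1 CPM in every library. Most of that sum was ESAM (172 ± 8.58 against 96.7 ± 36.8 CPM), and of 8 tested markers CDH5 was called higher and ERG lower (log2 fold changes 2.50 and -2.17). The 10 macrophage markers summed to 122 to 204 CPM against 73.8 to 128 CPM, with 5 of the 10 under 1 CPM in every library. CD68 made up most of that sum and was called higher (0.89), while the other 4 tested markers were negative, with PTPRC, CSF1R and AIF1 called lower (-2.32, -0.82 and -1.72). The macrophage gene TYROBP was at 0 in all 15 libraries. Adipocyte and red cell markers summed to at most 15.6 and 3.94 CPM in any library, and 9 immediate early genes (1662 to 2326 against 997 to 2342 CPM) and 8 proliferation genes (859 to 1252 against 974 to 1438 CPM) overlapped between title number 6 and the rest. CDH1, which encodes E-cadherin of epithelial junctions, reached at most 5.56 CPM in title number 6 while the other 12 had at least 53.1 CPM, so number 6 differed in more than the genes described here.

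The contrast of title number 6 with the other numbers asked how the 40 genes sat in the 3 libraries that led most of them. In edgeR's quasi-likelihood fit, with the adhesion class as a term, 36 of the 40 fold changes were positive, and 16 genes passed the threshold (Benjamini-Hochberg adjusted p under 0.05 over all genes), 14 higher and 2 lower in number 6. Over all 15190 genes 26.5% passed, 10.4% higher and 16% lower, so calls were common in this contrast. The fit treats the 3 libraries of number 6 as independent, though their deviations from class means over all genes correlated at 0.68 to 0.77. They may share a source, so p-values of this contrast do not measure the spread between sources. The median log2 fold change of the members was 0.50, against -0.01 over all genes tested. By group, the medians were 0.93 for the 17 HIF targets, 0.48 for the 7 transporters and regulators, and 0.31 for the 15 enzymes. The grouping is by role. HIF also turns on genes of glucose uptake and glycolysis, so the medians do not set its targets against genes it leaves alone.

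CA9, a membrane carbonic anhydrase that helps tumour cells control acidity, showed the widest gap among the HIF targets. It stood at 5.49, 5.07 and 5.51 CPM in number 4, and at 4.33, 7.46 and 7.37 CPM in number 5. Number 9 had 12.7, 12.1 and 6.95 CPM, unsorted and weakly adherent library 7-8 had 10.5 and 4.00 CPM, and weakly adherent library 10 had 1.36 CPM. In title number 6 the values were 31.2, 21.3 and 35.3 CPM, all above the highest of the other 12. The log2 fold change was 2.14 (SE 0.39, adjusted p = 0.00184).

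The other HIF targets that passed upwards carry out mitochondrial clearance, lipid handling and signalling. BNIP3, which marks mitochondria for removal, stood at 381, 320 and 326 CPM in number 6, against 63.3 to 217 CPM (median 178) in the other 12. Its close relative BNIP3L stood at 322, 346 and 291 CPM against 109 to 253 CPM (median 200). Neither gene's ranges overlapped, and the log2 fold changes were 1.05 (SE 0.25, adjusted p = 0.00747) and 0.71 (SE 0.18, adjusted p = 0.0100). ANKRD37, a small ankyrin-repeat protein, was at 10.2, 6.69 and 10.0 CPM against 1.35 to 6.48 CPM (median 4.01; log2 fold change 1.13, SE 0.29, adjusted p = 0.0102). MXI1, an antagonist of MYC, was at 95.3, 85.7 and 63.2 CPM against 16.6 to 57.2 CPM (median 45.7; 0.93, SE 0.29, adjusted p = 0.0282). Both of these separated number 6 from every other library, ANKRD37 by a small margin in unsorted library 6.

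ANGPTL4, a secreted inhibitor of lipoprotein lipase, passed on the strength of a single library. It was at 598 CPM in strongly adherent library 6 but at 85.2 and 116 CPM in unsorted and weakly adherent library 6, inside the range of the other 12 (35.0 to 125 CPM, median 84.7). The log2 fold change of 1.34 (SE 0.45, adjusted p = 0.0457) became 0.34 with an adjusted p of 0.555 without strongly adherent library 6, and the call was lost in 16 of 26 alternative analyses.

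VEGFA, the main growth factor of blood vessels and a textbook HIF target, was lower in title number 6. Its values there were 281, 128 and 178 CPM, against 191 to 377 CPM (median 268) in the other 12. The unsorted and weakly adherent libraries lay below all others and the strongly adherent one within them, and the log2 fold change was -0.53 (SE 0.15, adjusted p = 0.0198). It was -0.32 (adjusted p = 0.183) without unsorted library 6 and -0.44 (adjusted p = 0.106) without the adhesion class as a term. HIF1A, the alpha subunit, was lower too, at 186, 176 and 146 CPM against 170 to 452 CPM (median 248), with a log2 fold change of -0.67 (SE 0.19, adjusted p = 0.0161). Its highest value was in strongly adherent library 5, where 23 of the other members had their lowest. Values of HIF1A are uncertain to the extent that reads of its antisense transcripts were counted with it, since no source used here says whether reads were counted by strand.

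**Figure D3:**
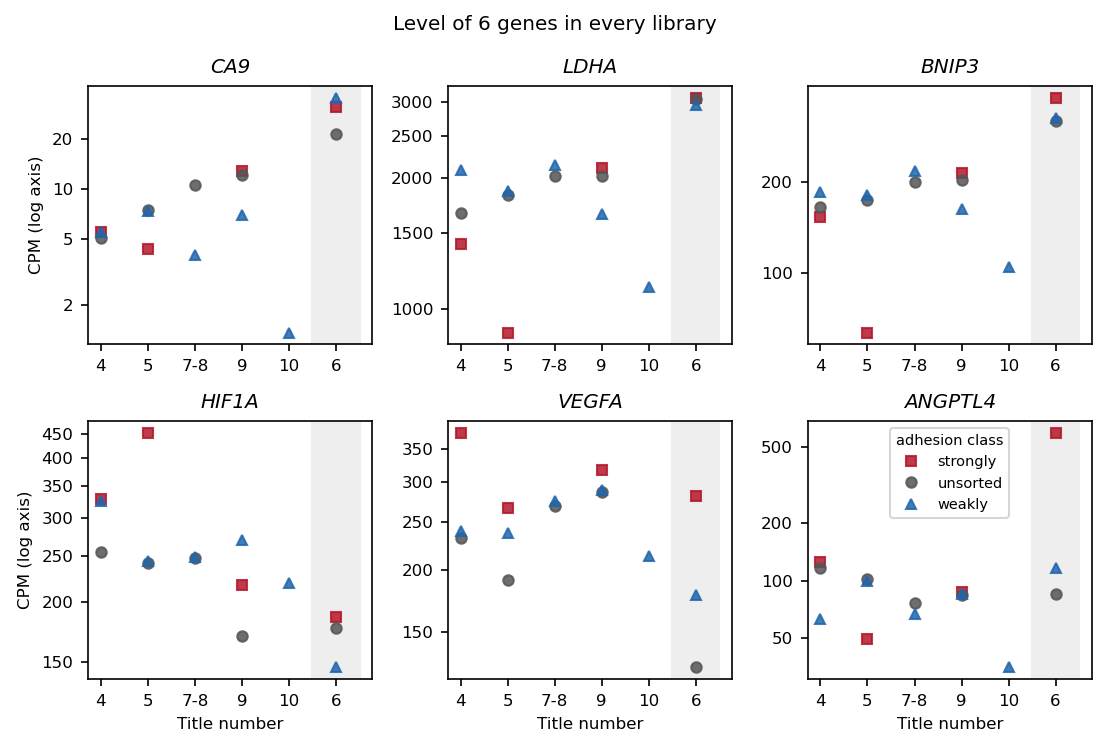
CPM on a log axis of 6 genes in every library, by title number, with the adhesion class as marker and title number 6 in the grey band. CA9, LDHA and BNIP3 have all 3 number 6 libraries above the other 12; HIF1A lies low there, VEGFA lies low in the unsorted and weakly adherent libraries of that number but not in the strongly adherent one; ANGPTL4 is high in strongly adherent library 6 alone.

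The remaining 10 HIF targets did not pass in edgeR's fit, though DESeq2 called P4HA1, CA12 and EGLN1. NDRG1, a stress-responsive gene, and P4HA1, a collagen prolyl hydroxylase, nonetheless had all 3 libraries of number 6 above the other 12, at 1457 to 1832 CPM against 105 to 1297 CPM and at 130 to 157 CPM against 36.7 to 117 CPM (adjusted p = 0.153 and 0.0713). DDIT4, an inhibitor of mTOR signalling, and LOX, which crosslinks collagen, resembled ANGPTL4 in their values. DDIT4 was at 446 CPM in strongly adherent library 6 but at 98.2 and 126 CPM in the unsorted and weakly adherent ones, and LOX was at 433 CPM against 94.2 and 134 CPM. For ANGPTL4, DDIT4 and LOX, strongly adherent library 6 was 5.95, 3.98 and 3.79 times the mean of the other 2 libraries of its number. The vasodilator peptide ADM had a log2 fold change of 1.10, CA12, another carbonic anhydrase, 0.55, the demethylase KDM3A 0.33, and the oxygen sensors EGLN1 and EGLN3 0.33 and 0.48. P4HA2, the second collagen prolyl hydroxylase, was at -0.11.

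Among the glycolytic enzymes, LDHA, the lactate dehydrogenase subunit that turns pyruvate into lactate, had the smallest adjusted p after ALDOC. It stood at 1411, 1665 and 2091 CPM in number 4, at 882, 1830 and 1868 CPM in number 5, and at 2118, 2021 and 1653 CPM in number 9. Unsorted and weakly adherent library 7-8 had 2022 and 2153 CPM and weakly adherent library 10 had 1126 CPM. The 3 libraries of number 6 had 3070, 3049 and 2950 CPM, close together and above all others, and the log2 fold change was 0.83 (SE 0.20, adjusted p = 0.00718).

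The enzymes that passed stand at both ends of the pathway and at its middle. HK2, the inducible hexokinase that traps glucose in the cell, was at 192, 152 and 147 CPM in number 6 against 55.7 to 141 CPM (median 102), a log2 fold change of 0.74 (SE 0.21, adjusted p = 0.0181). PFKP, the platelet-type phosphofructokinase of the committed step, was at 281, 233 and 266 CPM against 113 to 228 CPM (median 202; 0.48, SE 0.17, adjusted p = 0.0452), and its call was lost in 12 of 26 alternatives. For both genes the 3 libraries lay above the other 12, PFKP by a narrow margin. PGK1, which makes the first ATP of the pathway, was at 1577, 1513 and 1383 CPM against 530 to 1183 CPM (median 1014), and ENO1, the main enolase, at 3276, 4004 and 3715 CPM against 1770 to 3074 CPM (median 2665). Their log2 fold changes were 0.66 (SE 0.20, adjusted p = 0.0246) and 0.51 (SE 0.15, adjusted p = 0.0171), again without overlap.

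ALDOC had a large fold change and a wide spread. It was at 28.5, 11.1 and 61.8 CPM in number 6 against 1.89 to 13.5 CPM (median 8.20) in the other 12, so unsorted library 6 lay inside the range of the others. The log2 fold change was 2.11 (SE 0.47, adjusted p = 0.00627), and it was 1.41 with an adjusted p of 0.0973 without weakly adherent library 6. ALDOA, the main aldolase, had a mean of 1277 ± 114 CPM (SD, n = 3) in number 6 and of 1115 ± 131 CPM (SD, n = 12) elsewhere; its log2 fold change of 0.20 did not pass. PGAM1, HK1, GPI, GAPDH, PFKL, PKM and TPI1 had log2 fold changes of 0.31, 0.47, 0.26, 0.20, 0.13, 0.13 and 0.10, and the neuronal enolase ENO2 had -0.09; none of these passed in edgeR's fit. PGAM1 did pass with DESeq2, with its size factors in edgeR and with limma-trend, and HK1 passed with DESeq2. GPI, which opens the path from glucose phosphate to fructose phosphate, still had 345 to 349 CPM in number 6 against at most 334 CPM elsewhere (adjusted p = 0.092). GAPDH, PGK1, PGAM1, ENO1, LDHA and TPI1 have near-identical pseudogene copies to which reads of 50 bp may be assigned, so their single values carry that uncertainty.

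Of the 7 transporters and regulators, both called genes were pyruvate dehydrogenase kinases, which hold pyruvate back from the mitochondrion. PDK1 was at 48.4, 39.5 and 39.8 CPM in number 6 against 10.6 to 34.0 CPM (median 25.4; log2 fold change 0.82, SE 0.25, adjusted p = 0.0260). PDK3 was at 27.8, 30.3 and 28.6 CPM against 16.3 to 25.4 CPM (median 20.8; 0.48, SE 0.12, adjusted p = 0.0102). Neither gene's ranges overlapped. The neuronal glucose transporter SLC2A3 had a log2 fold change of 0.90, PFKFB3 and PFKFB4, which set the level of the phosphofructokinase activator, 0.87 and 0.48, the lactate exporter SLC16A3 0.33 and the general glucose transporter SLC2A1 0.11, none of which passed in edgeR's fit; limma-trend on the deposited values called SLC2A3 and PFKFB3.

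**Figure D4:**
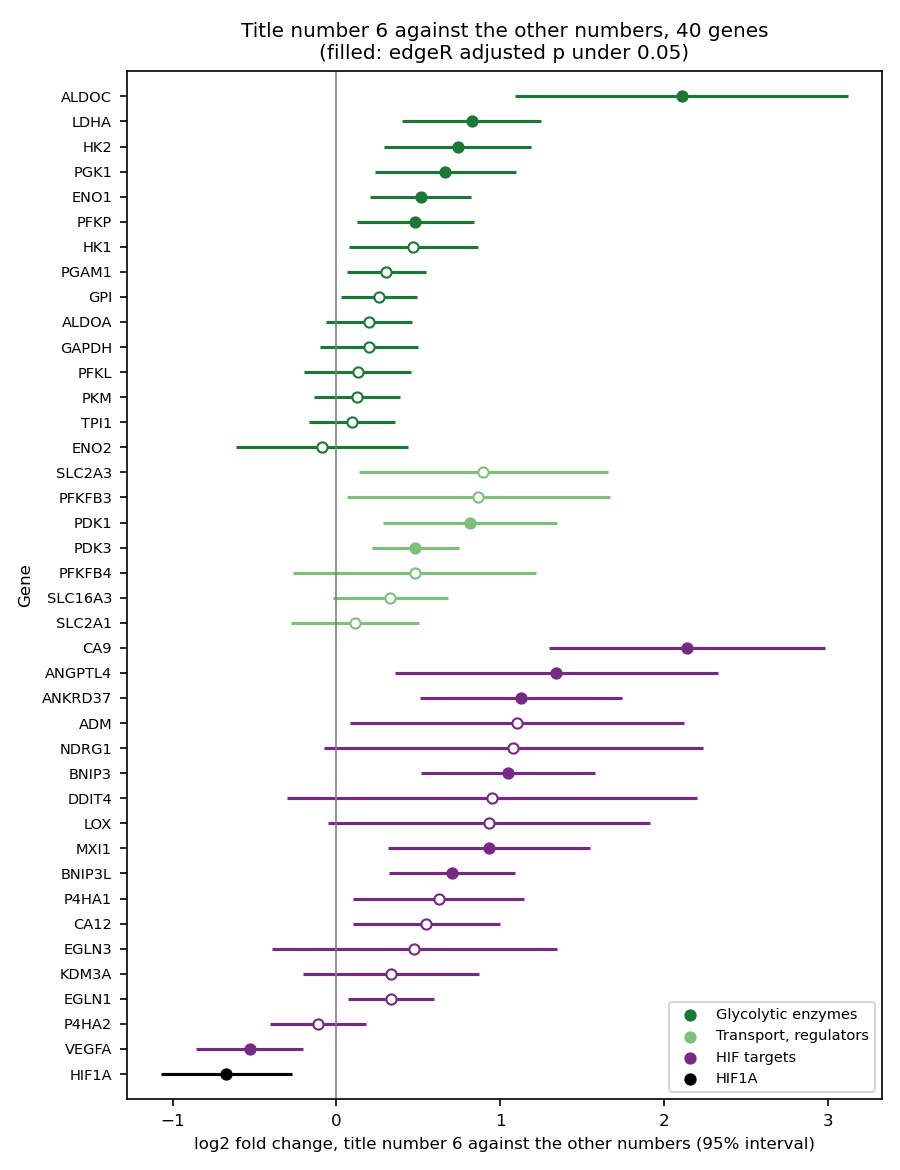
Points are edgeR log2 fold changes of title number 6 against the other numbers for the 40 genes, with approximate 95% intervals; filled points passed an adjusted p of 0.05 and colours give the gene group. The 14 genes called higher range from PDK3 and PFKP at 0.48 to CA9 at 2.14, and VEGFA and HIF1A are the 2 called lower.

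In all, 15 of the 40 genes had all 3 libraries of number 6 above all 12 others, 7 HIF targets and 8 of glycolysis, and 12 of these 15 were also called. None of the 40 had all 3 below. Over all genes tested, 5.63% were above in this way and 10.4% below.

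The calls leaned on strongly adherent library 6. Without it 3 members passed (CA9, PDK3 and VEGFA), while 10 passed without unsorted library 6 and 8 without weakly adherent library 6; over all genes the calls went from 4018 to 1642, 3272 and 3373. The 13 calls lost without strongly adherent library 6 kept their direction, with adjusted p from 0.05 (ALDOC) to 0.555 (ANGPTL4). LDHA had 0.71 (0.0726), BNIP3 0.87 (0.079), BNIP3L 0.65 (0.0756), ENO1 0.52 (0.0781), ANKRD37 0.97 (0.0903) and HK2 0.71 (0.0984), each as log2 fold change and adjusted p. Higher adjusted p were found for HIF1A (0.111), PGK1 (0.164), PDK1 (0.171), MXI1 (0.198) and PFKP (0.275). Without unsorted library 6 the calls of HK2, PGK1, PDK1, PDK3, BNIP3L and MXI1 were lost at adjusted p of 0.0536 to 0.0923 and that of VEGFA at 0.183. Without weakly adherent library 6 those of PFKP, ALDOC, PGK1, ENO1, PDK1, VEGFA, ANKRD37, ANGPTL4 and HIF1A were lost at 0.053 to 0.141. CA9 passed in all 26 alternatives, at log2 fold changes of 1.68 to 2.50. Without strongly adherent libraries 5 and 6 together, 9 members and 1920 of all genes passed. Without weakly adherent library 10 and strongly adherent library 5, the pair lowest for most members, 21 members passed, among them NDRG1, P4HA1 and ADM. Over all genes that fit called 3735, fewer than the 4018 of the main fit.

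Each other title number was set against the rest in the same way, and none gave a called member. Numbers 4, 5, 7-8 and 10 gave no called gene at all (0%), and number 9 gave 1 (0.00658%), not a member. The members were positive for 8 of 40 genes in number 4, 4 in number 5, 34 in number 7-8, 16 in number 9 and 0 in number 10, with medians of -0.11, -0.36, 0.10, -0.04 and -0.85. Number 10 is 1 library, and its difference rests on the spread of the others. In each of these contrasts the rest includes the 3 libraries of number 6, which are high for most members. That can widen the spread and lower the fold changes of the other numbers. The contrasts are therefore not independent of number 6, and their lack of calls does not show that the other numbers are alike. A test for any difference among the 6 numbers called CA9 (adjusted p = 0.00377), HK2 (0.0212) and LDHA (0.0499), 3 of 40 members beside 7.9% of all genes. That count of members was 18 without strongly adherent library 5 (1621 over all genes, against 1200 in the main fit) and 24 with DESeq2 (3344). It was 1 without strongly adherent library 4 (637) or unsorted library 6 (591), and 6 without weakly adherent library 5 (1180).

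Other genes of these pathways, taken from fixed lists, moved in both directions in number 6, and the share called in each list is to be read against the 26.5% called over all genes. Of 12 tested genes that make up or control HIF, 4 passed, 2 higher and 2 lower. ARNT2, a HIF partner subunit, had 1.44 ± 1.06 CPM in number 6 (SD, n = 3) and 11.0 ± 4.10 CPM in the others (SD, n = 12; log2 fold change -2.96), and EPAS1, the second alpha subunit, at 35.0 ± 22.4 against 70.4 ± 36.2 CPM (-1.20). CITED2, which competes with HIF for its coactivator, was higher by 1.15, with a wide spread in number 6 (226 ± 106 against 99.7 ± 30.5 CPM). CUL2, a scaffold of the VHL ligase, was higher by 0.39 (67.2 ± 7.05 against 51.6 ± 4.53 CPM). Of 38 other hypoxia targets 12 passed, 10 higher and 2 lower (median 0.35). They include FAM162A (64.9 ± 11.6 against 34.8 ± 7.70 CPM), the collagen lysyl hydroxylase PLOD2 (191 ± 56.6 against 107 ± 23.6 CPM) and, lower, the histone demethylase KDM5B (45.8 ± 5.60 against 80.0 ± 10.4 CPM).

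Of 46 tested genes of other carbohydrate metabolism 10 passed, 6 higher and 4 lower, with a median of 0.07, again beside 26.5% of all genes. HKDC1, a hexokinase-like enzyme (-3.34), and the glucose transporter SLC2A10 (-2.00) were lower. GBE1, the glycogen branching enzyme, was higher (0.88), at 167 ± 23.5 against 92.0 ± 22.8 CPM. PDK4, a further pyruvate dehydrogenase kinase, was called higher (1.37) at 42.7 ± 40.4 against 13.4 ± 4.89 CPM. Its SD in number 6 was nearly as large as its mean, so the 3 libraries were far from alike. Among 20 genes of the tricarboxylic acid cycle 6 passed, 5 higher and 1 lower (median 0.14). IDH3B, SUCLG1 and MDH1, of the isocitrate, succinyl-CoA and malate steps, were higher by 0.43, 0.36 and 0.39, and the mitochondrial isocitrate dehydrogenase IDH2 was lower at -0.43.

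The comparison of adhesion classes asked whether the sorted origin of the cells left a difference in these genes in their tumours. None of the 40 members passed in edgeR's fit of any of the 3 contrasts, and none of the 15190 genes did (0%). At an unadjusted p under 0.05 stood 1 member of weakly against strongly adherent (366 of all genes), 0 of weakly adherent against unsorted (81) and 2 of strongly adherent against unsorted (572). DESeq2 and limma voom without the title number as a term called no member either. The members split 20 positive and 20 negative in the first contrast, with 14 positive in the second and 16 in the third, and the medians were -0.01, -0.08 and -0.04. With limma voom 25, 14 and 9 were positive, and with the title number as a block in edgeR 28, 27 and 12 were.

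These splits turned on single libraries. In weakly against strongly adherent, 33 of 40 were positive without strongly adherent library 6 and 6 of 40 without strongly adherent library 5. In strongly adherent against unsorted, 5 were positive without strongly adherent library 6 and 31 without strongly adherent library 5. In weakly adherent against unsorted, 27 were positive without weakly adherent library 10.

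VEGFA had the smallest p of the members in strongly adherent against unsorted, and the second smallest in weakly against strongly adherent. It stood at 377, 267, 281 and 318 CPM in strongly adherent libraries 4, 5, 6 and 9, and at 231, 191, 128, 269 and 286 CPM in unsorted libraries 4, 5, 6, 7-8 and 9. The weakly adherent libraries ran from 178 to 289 CPM (median 238), so the strongly adherent group was high but overlapped both others. The log2 fold change was 0.49 (SE 0.20, 95% interval 0.06 to 0.92, adjusted p = 0.975) for strongly adherent against unsorted and -0.38 (SE 0.19, adjusted p = 1) for weakly against strongly adherent. Over all genes, the deviations from class means of same-numbered strongly adherent and unsorted libraries correlated at 0.28 to 0.75. Strongly adherent libraries 4 and 5 nonetheless correlated more with an unsorted library of another number (0.60 and 0.43) than with their own (0.52 and 0.28). With the title number as a block edgeR gave 0.60 (adjusted p = 0.561), and DESeq2 with that block gave 0.60 with an adjusted p of 0.043.

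ANGPTL4 had the largest differences by class, carried by strongly adherent library 6. Its strongly adherent values were 125, 49.5, 598 and 87.5 CPM in libraries 4, 5, 6 and 9, its unsorted values ran from 76.1 to 117 CPM and its weakly adherent ones from 35.0 to 116 CPM. The log2 fold change was -1.47 (SE 0.55) for weakly against strongly adherent and 1.21 (SE 0.58) for strongly adherent against unsorted, and the latter was -0.09 without strongly adherent library 6. DDIT4 and LOX gave -0.77 (SE 0.58) and -0.59 (SE 0.48) for weakly against strongly adherent, and 0.22 and 0.39 without that library.

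The other members with the smallest p were enzymes and carriers with small differences. PKM was at 2278 ± 197 CPM (SD, n = 4) in strongly adherent, 2748 ± 129 CPM (SD, n = 5) in unsorted and 2583 ± 400 CPM (SD, n = 6) in weakly adherent libraries. TPI1, which interconverts the triose phosphates, was at 700 ± 72.7, 855 ± 67.8 and 778 ± 122 CPM in the same order. Strongly adherent against unsorted, their log2 fold changes were -0.27 and -0.29, with PFKL, the liver-type phosphofructokinase, at -0.31 and PGAM1, the phosphoglycerate mutase, at -0.27. Weakly adherent against unsorted, PGAM1 was at -0.19, SLC16A3 at -0.24, P4HA2 at -0.15, PFKL at -0.17, TPI1 at -0.13 and CA12 at 0.26, and CA12 was at 0.35 and PKM at 0.18 in weakly against strongly adherent. Leaving out single libraries moved the differences from unsorted of weakly adherent libraries to between -0.24 and -0.079 for PGAM1 (the nearest to 0 without unsorted library 6), and without weakly adherent library 10 PFKL, P4HA2 and TPI1 came to -0.093, -0.093 and -0.078. CA12 in that contrast was at 0.13 without unsorted library 4 and at 0.41 without unsorted library 6. Strongly adherent against unsorted, PGAM1 was at -0.16 without unsorted library 6. For CA9 and LDHA the class difference was poorly bounded: weakly against strongly adherent the 95% intervals ran from -2.10 to 1.27 and from -0.57 to 0.72 on the log2 scale.

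Pairing the classes by title number showed that the numbers did not share a direction. Weakly minus strongly adherent, the median difference of the 40 genes in log2 CPM was 0.27 in number 4, 0.95 in number 5, -0.14 in number 6 and -0.26 in number 9, with 34, 36, 13 and 6 of the 40 higher in the weakly adherent library. For the HIF targets alone the medians were 0.23, 1.37, -0.33 and -0.17. Strongly adherent minus unsorted gave 0.10, -0.70, 0.21 and 0.07 for numbers 4, 5, 6 and 9, with 24, 4, 28 and 27 higher. Weakly adherent minus unsorted gave 0.35, 0.05, 0.02, -0.07 and -0.20 for numbers 4, 5, 6, 7-8 and 9, with 37, 25, 22, 16 and 11 higher. The 3 differences of a number share libraries, and the wide values of number 5 all involve strongly adherent library 5.

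**Figure D5:**
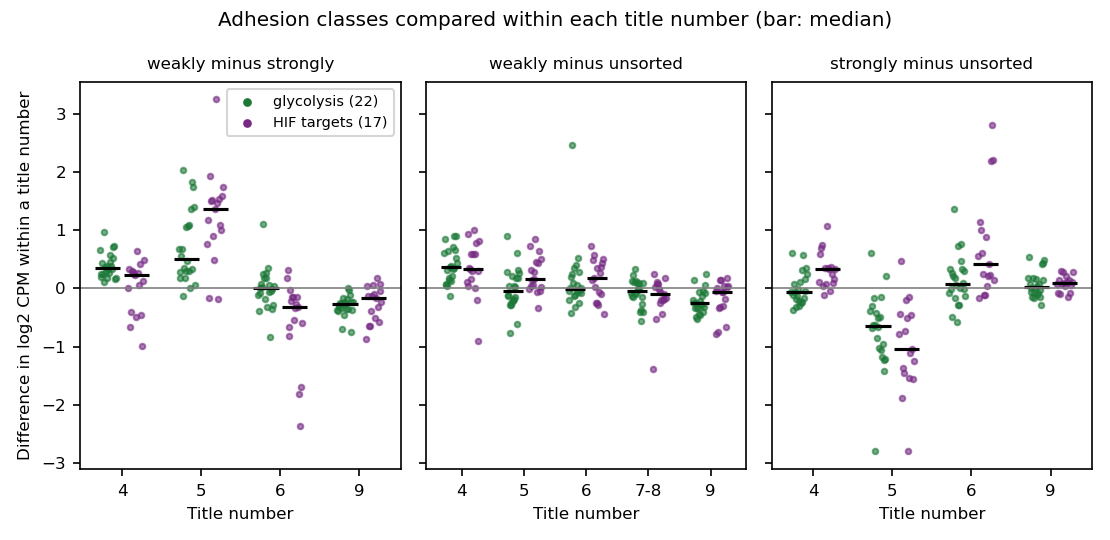
Each point is a gene's difference in log2 CPM between adhesion classes of the same title number (horizontal axis), for the 22 glycolysis genes and the 17 HIF targets, with the median as a bar. Weakly minus strongly adherent is mostly above 0 in numbers 4 and 5 and mostly below 0 in number 9, and strongly minus unsorted is mostly below 0 in number 5 for both gene groups.

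Few genes kept a direction across all pairs. Weakly above strongly adherent in all 4 pairs were SLC2A1 (0.39, 0.00, 0.05 and 0.01 in numbers 4, 5, 6 and 9) and CA12 (0.34, 1.17, 0.31 and 0.04), beside 5.17% of all genes. VEGFA was below in all 4, at -0.65, -0.17, -0.66 and -0.14, beside 6.16%. Strongly adherent above unsorted in all 4 were HK2 (0.61, 0.61, 0.34 and 0.54), VEGFA (0.70, 0.48, 1.14 and 0.15) and HIF1A (0.37, 0.90, 0.08 and 0.36), beside 10.7%, and TPI1 and PKM were below, beside 9.03%. Weakly adherent above unsorted in all 5 were PDK1, VEGFA and LOX, the first by 0.01 to 0.52, beside 1.38%; no member was below in all 5, beside 1.52%.

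Whether the distance of number 6 from the rest differed between the adhesion classes was tested with an interaction term, which rests on 1 library of number 6 per class. No member passed in edgeR (2 at an unadjusted p under 0.05, ANGPTL4 and LOX), beside 0.0592% of all genes. DESeq2 called 1 member, ANGPTL4.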

How the data were processed

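Per the labels' protocols, TruSeq stranded libraries of tumour mRNA were read as 50 bp single-end reads. The tools, per the submitters' processing notes, were STAR and HTSeq on build hg19, with cutadapt, FastQC and DESeq2; versions and whether counting used strand are not given in the sources used here. Mouse is the labelled organism, but symbols and build are human, so host reads that align to human genes may be among the counts. The deposited tables hold the authors' raw counts by gene symbol and log2 values that equal log2 of the size-factor-scaled count plus 1 (recomputed within 5.15e-14).

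All tests here used the counts in R 4.3.3 with edgeR 4.0.16 (TMM, filterByExpr, robust quasi-likelihood, two-sided, Benjamini-Hochberg over 15190 genes, threshold 0.05). The adhesion contrasts had the class as the only term; those of title numbers had class and number. Standard errors are the absolute log2 fold change over the square root of F, and 95% intervals are approximate. Intervals cover the spread between libraries. Alternatives were other scalings and filters, DESeq2 1.42.0, limma 3.58.1 (voom, or trend at pseudocounts 1, as deposited, and 8), a title number block, and libraries left out; fits without weakly adherent library 10 and strongly adherent library 5 were added after seeing the data. Fits were also run on simulated counts with independent libraries and a fixed spread, settings that libraries of one title number need not share. Their outcome is not given here.

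The members, lists and tests were chosen with earlier results of these data known. Named were CA9 and LDHA, all members called in the title number 6 contrast, the 6 members of smallest p in each adhesion contrast, and up to 4 called genes per pathway list at a mean of at least 1 CPM, of which 1 is not reported here; GPI, NDRG1, P4HA1, ADM, DDIT4, LOX, ENO3, ACTA1, CDH1, TYROBP, ESAM, CDH5, ERG, CD68, PTPRC, CSF1R and AIF1 were named after their values were seen. Over 4 numbers, residuals of strongly adherent and unsorted libraries of the same number correlated at 0.52, 0.28, 0.75 and 0.36, all over 0.1, the rule used here for pairing; some libraries of different numbers correlated more (strongly adherent library 4 with unsorted library 7-8 at 0.60, strongly adherent library 5 with unsorted library 4 at 0.43). No 2 libraries of a class agreed within sampling noise. No human sequences were used here.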

Additional observations from a re-analysis of the deposited data

Results flagged for a closer look

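In each adhesion class, the highest and the lowest library of every member was checked for a gap to its neighbour that is wide for the spread of the class in log2 CPM. Of 120 checks 13 found such a library, where chance gives about 6, and the 40 genes are not independent of each other.

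Of these, 9 were low values of weakly adherent library 10 within its class. They were HK2 at 55.7 CPM (next library 107), SLC2A3 at 32.3 (73.5), PFKFB3 at 34.6 (88.8), PFKFB4 at 27.4 (65.4), EGLN1 at 62.7 (78.4), EGLN3 at 17.6 (35.1), NDRG1 at 197 (911), P4HA1 at 60.4 (97.8) and MXI1 at 25.9 CPM (46.4). These genes serve glucose entry and its regulation, oxygen sensing, collagen hydroxylation and growth control.

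The other 4 were high values in title number 6. Unsorted library 6 had GPI at 347 CPM (next 308) and PGAM1 at 305 CPM (229), strongly adherent library 6 had ALDOA at 1329 CPM (1101), and weakly adherent library 6 had ALDOC at 61.8 CPM (11.8). Strongly adherent library 5, although lowest for 23 members, gave none in its class of 4.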

How the results depend on the processing

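The 16 calls in title number 6 became 14 to 21 under other scalings, filters and tools, 9 without strongly adherent libraries 5 and 6, 21 without weakly adherent library 10 and strongly adherent library 5, and 3 to 20 with 1 library left out. HIF targets called ranged from 2 to 8 and glycolysis genes from 1 to 11 with 1 library left out, and 4 glycolysis genes were called without strongly adherent libraries 5 and 6. Over all genes these calls were 4018, against 1642 without strongly adherent library 6 and 1920 without strongly adherent libraries 5 and 6. They were 3735 without weakly adherent library 10 and strongly adherent library 5. Other scalings, filters and tools gave 3734 (no filter) to 4735 (DESeq2). Leaving out strongly adherent library 9, where 20 members passed, gave 4543. The 22 members followed were picked by their calls or values in these libraries, which the 26 alternatives largely reuse. All 22 kept their direction in all 26, which is therefore no independent support. The log2 fold changes of LOX and DDIT4 in title number 6 came down to 0.029 and 0.031.

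Any difference among title numbers gave 3 members, 24 with DESeq2, 7 with limma voom and 5 with limma-trend at either pseudocount. With 1 library left out it gave 1 to 18 members. Over all genes it gave 1200, 3344 with DESeq2, 1558 with limma voom and 1559 or 1525 with limma-trend (pseudocount 1 or 8). It gave 386 to 749 genes without strongly adherent library 4 or 6 or unsorted library 4, 6 or 9. It gave 1621 without strongly adherent library 5, 1516 without weakly adherent library 6 and 1399 without weakly adherent library 10. The interaction gave 0 members and 9 genes, against 1 member and 296 genes with DESeq2, 0, 41 or 5 genes with voom or limma-trend (pseudocount 1 or 8) and 0 to 35 genes with 1 library left out, and it could not be fitted without each number 6 library. Without title number 6, weakly against strongly adherent gave DDIT4 0.16 and LOX 0.35, and strongly adherent against unsorted gave ANGPTL4 -0.13. With 1 library left out they ran from -1.11 to 0.22, from -0.93 to 0.39 and from -0.091 to 1.54, the reversed ends without strongly adherent library 6. Except for the settings named as leaving out libraries, the cause was not tested.

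With the title number as a replicate block, edgeR called 0 members and 0 genes in each adhesion contrast, but the members above 0 went from 20, 14 and 16 to 28, 27 and 12 of 40 (weakly against strongly adherent, weakly adherent against unsorted, strongly adherent against unsorted). DESeq2 with the block called 1 member (VEGFA) and 23 genes in strongly adherent against unsorted, and 0 members and 30 genes in weakly against strongly adherent. Over all classes together, 11 of 13 same-numbered pairs correlated above 0.1, and 9 of 14 libraries correlated best with their own number. The pairs under 0.1 were unsorted with weakly adherent library 4 (0.03) and strongly with weakly adherent library 5 (0.02). Both include a weakly adherent library, so for contrasts with that class the numbers are not shown to pair all samples. Other pairs with that class correlated at up to 0.77 (strongly with weakly adherent library 6). The smallest count of any member in any library was 50, and the effect of depth on the calls was not tested.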
